A study of Mus musculus with 10 samples.

Results

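Malonyl-CoA is the building block from which fatty acids are extended, and it also holds back the entry of fatty acids into mitochondria by inhibiting carnitine palmitoyltransferase at the outer membrane. It is made from acetyl-CoA by the acetyl-CoA carboxylases, from free malonate by a synthetase in the mitochondrial matrix, and is removed by a decarboxylase. Kidney tubules draw much of their energy from fatty acid oxidation, so that the balance of these reactions is of interest in an injured kidney. The genes described here encode the enzymes that make, use or remove malonyl-CoA, the route by which malonate is metabolised. They were taken by gene symbol, and all 7 listed members, Acsf3, Mlycd, Acaca, Acacb, Mcat, Oxsm and Fasn, were found among 54532 genes. All 7 passed the filter on low counts in each set of libraries tested.

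The kidneys came from male wild-type C57BL/6 mice whose left ureter was ligated at 8 weeks of age (unilateral ureteral obstruction, UUO), and they were collected 14 days later. Dimethyl malonate (DMM), a cell-permeable malonate ester whose product malonate competes with succinate at succinate dehydrogenase, was given intraperitoneally at 40 mg/kg every other day, and control mice received PBS. Every mouse in both groups was obstructed, so no value here describes an unobstructed kidney. Bulk RNA sequencing covered 5 PBS and 5 DMM kidneys with 1 library each, and total counts lay between 16457495 and 18078777 in PBS and between 15722527 and 19475833 in DMM libraries.

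Certain libraries stood apart, and values are given with and without them. The group means that the authors deposited carry a weight of 0 for PBS replicate 3 and for DMM replicate 1, and weights between 0.227 and 0.271 for the other 8 libraries. Results are therefore given over all 10 libraries and over these 8. The summed level of 12 proximal tubule markers was 11509 CPM in PBS replicate 3, against 1771 to 4525 CPM in the other PBS libraries. In DMM replicate 1 the sum was 3445 CPM, against 6565 to 11398 CPM in the other DMM libraries. The mean of 14 interferon-stimulated genes on the log2 scale, relative to the PBS mean, was -0.09 in DMM replicate 1 and between -3.46 and -2.75 in DMM replicates 2 to 5. By this measure PBS replicate 3, at -0.26, lay within the other PBS libraries (-0.37 to 0.27).

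DMM replicate 4 differed in another way. Its deviation from the other DMM libraries followed transcript length and base composition. With the tested genes in 5 bins of equal size, the median log2 deviation was -0.72 for the shortest transcripts and 0.65 for the longest. By GC content, it was 0.59 in the lowest bin and -0.72 in the highest. In each of the other 9 libraries these medians lay between -0.20 and 0.25. DMM replicate 4 belongs to both sets of libraries, so values without it are also given. Unless all 10 libraries are named, these are from the 7 libraries left of the 8, which lack PBS replicate 3 and DMM replicate 1 too. It was set aside after its values had been seen.

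**Figure D1:**
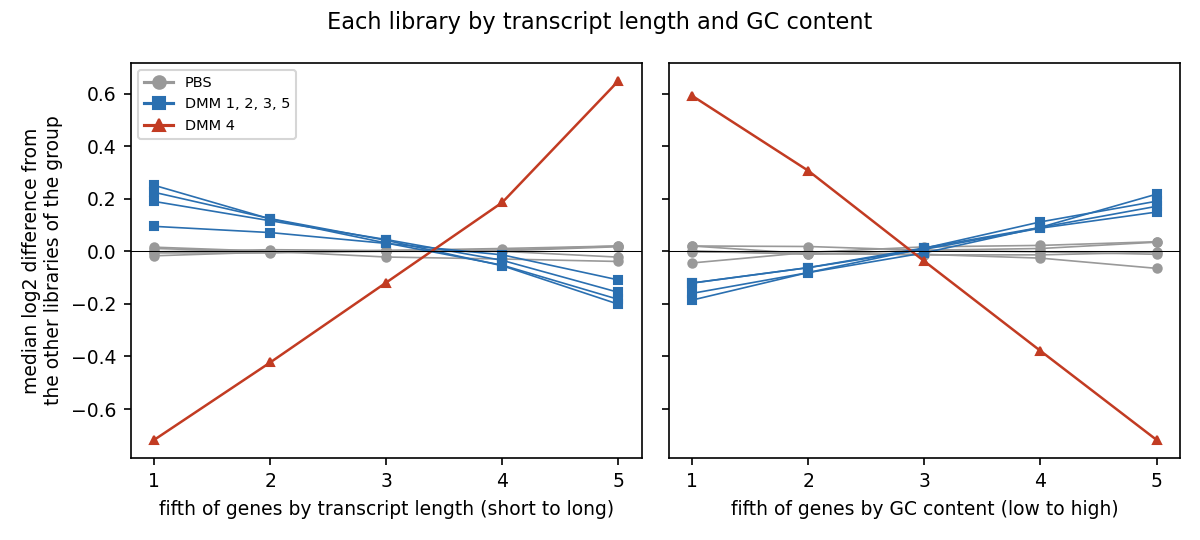
Median log2 difference of each library from the other libraries of its group (vertical axis) for 5 bins of the tested genes ordered by length of the longest transcript (left) and by GC content (right). DMM replicate 4 ran from -0.72 to 0.65 with length and from 0.59 to -0.72 with GC content. The other DMM libraries, whose comparison includes DMM replicate 4, ran the opposite way at a smaller size, and the PBS libraries stayed near 0.

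Over all 10 libraries the 7 enzymes showed no difference that passed the test. The log2 fold change of DMM over PBS was positive for all 7, from 0.09 for Mcat to 0.42 for Acaca, with a median of 0.19 against 0.02 over all tested genes. In edgeR, 0 of the 7 members passed an adjusted p under 0.05 (Benjamini-Hochberg, quasi-likelihood F test), and 0% of 16505 tested genes did. At an unadjusted p under 0.05 the count was 0 of 7, against 10.9% of all tested genes. DESeq2 also called 0 members, and 12 genes higher and 33 lower among all genes. Over the 8 libraries, the mitochondrial synthase gene Oxsm alone passed, 1 of 7 higher and 0 lower, against 3.17% of all tested genes higher and 4% lower. DESeq2 gave the same counts of members, with 978 genes higher and 1082 lower of 20165 tested. Oxsm was also the only member with every DMM library above every PBS library of the 8, a separation seen in 9.45% of tested genes. At an unadjusted p under 0.05, Acacb joined it, which makes 2 of 7 members against 21.6% of all tested genes. In the 7 libraries without DMM replicate 4, 4 of the 7 members passed as higher (Acsf3, Mlycd, Mcat and Oxsm) and 1 as lower (Acaca), against 14.3% of genes higher and 13.8% lower. With that library alone left out of all 10, 0 of the 7 members and 0 of 16707 tested genes passed in edgeR. The calls in the 7 libraries came with PBS replicate 3 and DMM replicate 1 left out too. Leaving out DMM replicate 4 with just 1 of these was not tested. Shares of 14.3% and 13.8% describe the 7 libraries only, and DMM replicate 4 was set aside after its values had been seen. By the proximal tubule sum, PBS replicate 3 was the highest PBS library and DMM replicate 1 the lowest DMM library. How much of these shares comes from the choice of libraries was not tested.

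**Figure D2:**
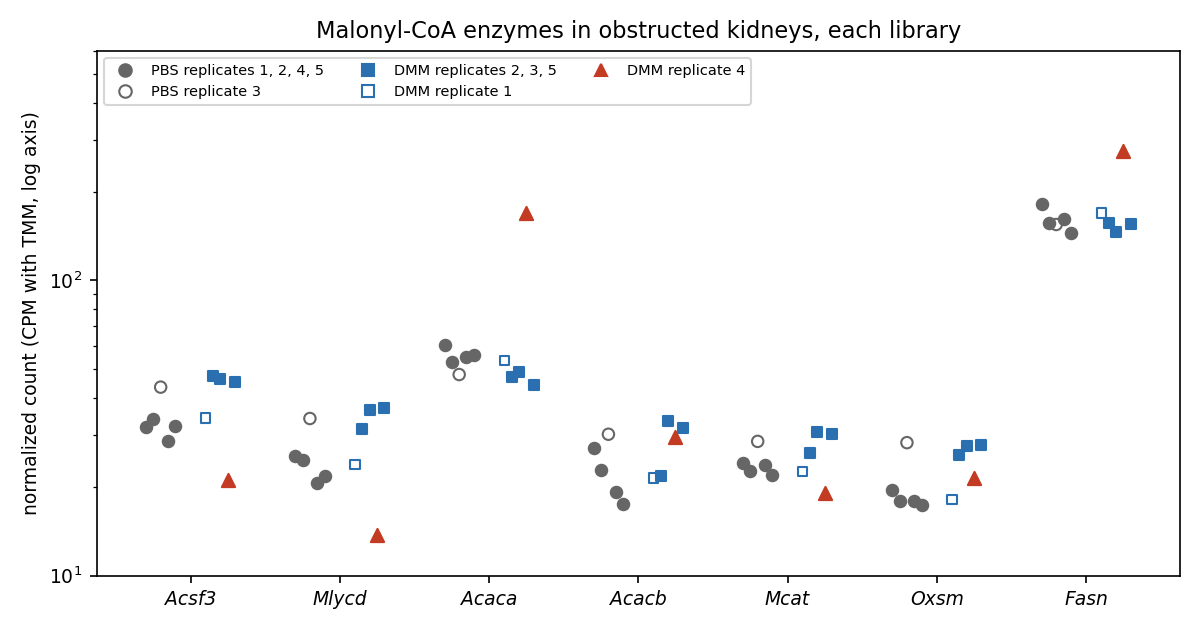
Normalized count of each of the 7 genes in every library (CPM with TMM, log axis), with PBS libraries as circles and DMM libraries as squares, or as a triangle for DMM replicate 4. DMM replicate 4 was the lowest of the 10 libraries for Acsf3, Mlycd and Mcat and the highest for Acaca and Fasn. Open symbols mark PBS replicate 3 and DMM replicate 1.

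Acsf3 (chromosome 8, 122775486 to 122817880 of mm10, plus strand) encodes the matrix synthetase that attaches malonate, and also methylmalonate, to coenzyme A. It is the member that acts on malonate directly. Its normalized count was 31.9, 34.0, 43.5, 28.6 and 32.1 CPM in PBS replicates 1 to 5, and 34.2, 47.4, 46.4, 21.0 and 45.3 CPM in DMM replicates 1 to 5. DMM replicates 2, 3 and 5 lay above every PBS library, DMM replicate 4 lay below every PBS library, and PBS replicate 3 was the highest of its group. The log2 fold change was 0.19 (SE 0.21, adjusted p = 0.721, edgeR) over all 10 libraries and 0.34 (SE 0.24, adjusted p = 0.459, edgeR) over the 8. With only DMM replicate 4 left out of all 10 it was 0.35 (adjusted p = 0.267, edgeR), and in the 7 libraries 0.55 (SE 0.07, adjusted p = 0.00101, edgeR).

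Mlycd (chromosome 8, 119394878 to 119411102, plus strand) encodes malonyl-CoA decarboxylase, which returns malonyl-CoA to acetyl-CoA. Its normalized count was 25.5, 24.7, 34.1, 20.6 and 21.8 CPM in PBS replicates 1 to 5, and 23.8, 31.5, 36.4, 13.7 and 37.0 CPM in DMM replicates 1 to 5. The order of the libraries resembled that of Acsf3, with DMM replicate 4 the lowest of all 10 and PBS replicate 3 among the high ones. The log2 fold change was 0.17 (SE 0.25, adjusted p = 0.800, edgeR) over all 10 libraries and 0.36 (SE 0.28, adjusted p = 0.507, edgeR) over the 8. Leaving only DMM replicate 4 out of all 10 gave 0.35 (adjusted p = 0.320, edgeR), and the 7 libraries gave 0.60 (SE 0.10, adjusted p = 0.00274, edgeR). A correction of each library for GC content and transcript length, chosen after seeing the data, kept all 8 libraries. Mlycd, Acsf3 and Mcat then passed, with log2 fold changes of 0.55, 0.52 and 0.47 and adjusted p = 0.0411, 0.0136 and 0.0486 (edgeR). These 3 of 7 stand against 8.06% of all genes higher and 5.29% lower in the corrected fit. Over all 10 libraries with the same correction, 0 of the 7 members and 0 of 16491 tested genes passed.

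The acetyl-CoA carboxylases divide the work of making malonyl-CoA. Acaca (chromosome 11, 84129672 to 84401651, plus strand) encodes the cytosolic enzyme that supplies fatty acid synthesis. It was at 60.5, 52.7, 48.0, 55.1 and 56.1 CPM in PBS replicates 1 to 5, and at 53.6, 47.2, 49.0, 169 and 44.3 CPM in DMM replicates 1 to 5. A single DMM library was far above all others, and DMM replicates 2 and 5 were the lowest of the 10. The log2 fold change was 0.42 (SE 0.35, adjusted p = 0.641, edgeR) over all 10 libraries and 0.46 (SE 0.42, adjusted p = 0.570, edgeR) over the 8. Without DMM replicate 4 the sign turned, to -0.17 (adjusted p = 0.313, edgeR) in the other 9 libraries. It was -0.26 (SE 0.07, adjusted p = 0.0211, edgeR) in the other 7 of the 8. The GC and length correction, which keeps DMM replicate 4, gave the opposite sign, 0.18 over the 8 libraries (adjusted p = 0.683, edgeR) and 0.16 over all 10 (adjusted p = 0.715, edgeR).

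Acacb (chromosome 5, 114146535 to 114250761, plus strand) encodes the carboxylase at the mitochondrial outer membrane, whose product acts on carnitine palmitoyltransferase. It was at 27.1, 22.8, 30.1, 19.3 and 17.5 CPM in PBS replicates 1 to 5, and at 21.4, 21.8, 33.4, 29.4 and 31.5 CPM in DMM replicates 1 to 5. The groups overlapped, since DMM replicates 1, 2 and 4 lay within the PBS range. For Acacb the log2 fold change was 0.24 (SE 0.19, adjusted p = 0.616, edgeR) over all 10 libraries and 0.42 (SE 0.18, adjusted p = 0.229, edgeR) over the 8. It changed little without DMM replicate 4, to 0.42 (SE 0.18, adjusted p = 0.121, edgeR).

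Oxsm and Mcat serve the fatty acid synthesis of the mitochondrial matrix, which provides the octanoyl chain for lipoic acid. Mcat transfers the malonyl group from coenzyme A to the acyl carrier protein, and Oxsm condenses it with the growing chain. Oxsm (chromosome 14, 16238652 to 16249808, minus strand) was at 19.5, 17.9, 28.2, 17.9 and 17.4 CPM in PBS replicates 1 to 5. In DMM replicates 1 to 5 it was at 18.1, 25.7, 27.4, 21.4 and 27.8 CPM. The highest of all 10 libraries was PBS replicate 3, and DMM replicate 1 lay among the PBS libraries, so that the groups separated only without these libraries. The mean was 18.2 ± 0.93 CPM in PBS and 25.6 ± 2.91 CPM in DMM kidneys of the 8 (SD, n = 4 each). Over the 8 libraries its log2 value for DMM against PBS was 0.49 (SE 0.13, adjusted p = 0.0496, edgeR, higher in 4 of 4 DMM libraries), at the edge of the threshold. The call was lost in 11 of 14 alternatives, including every fit without a single library except that without DMM replicate 4, and the adjusted p of the alternatives ran from 0.00131 to 0.187 (edgeR and DESeq2). Over all 10 libraries the log2 fold change was 0.26 (SE 0.17, adjusted p = 0.568, edgeR).

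Oxsm overlaps Ngly1, an N-glycanase gene on the opposite strand, by 529 bases at their starts. Whether counting took strand into account is not given in the sources used here, so reads in the shared bases cannot be assigned. Ngly1 was also higher over the 8 libraries (log2 fold change 0.44, adjusted p = 0.0403, edgeR). The antisense gene Gm47794 lies within Oxsm as well, with a mean count of 7.4 reads per library.

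Mcat (chromosome 15, 83546797 to 83563787, minus strand) was at 24.1, 22.7, 28.5, 23.7 and 21.9 CPM in PBS replicates 1 to 5, and at 22.6, 26.0, 30.7, 19.0 and 30.1 CPM in DMM replicates 1 to 5. Its range across libraries was narrow, and DMM replicate 4 was the lowest. The log2 fold change was 0.09 (SE 0.15, adjusted p = 0.821, edgeR) over all 10 libraries and 0.20 (SE 0.16, adjusted p = 0.533, edgeR) over the 8. It was 0.18 (adjusted p = 0.404, edgeR) with only DMM replicate 4 left out of all 10, and 0.33 (SE 0.08, adjusted p = 0.0196, edgeR) in the 7 libraries. The first 196 bases of Mcat are shared with Tspo on the opposite strand, a gene with a mean of 2799 reads per library which was at -0.89 (adjusted p = 0.145, edgeR) in the 8 libraries.

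Fasn (chromosome 11, 120805846 to 120824547, minus strand) encodes the cytosolic fatty acid synthase, which builds palmitate from acetyl and malonyl groups. It was at 181, 157, 155, 162 and 144 CPM in PBS replicates 1 to 5, and at 169, 156, 146, 274 and 155 CPM in DMM replicates 1 to 5. Apart from DMM replicate 4, the DMM values lay within the PBS range. Fasn had a log2 fold change of 0.17 (SE 0.17, adjusted p = 0.693, edgeR) over all 10 libraries and 0.18 (SE 0.21, adjusted p = 0.661, edgeR) over the 8. Without DMM replicate 4 it was -0.03 in the other 9 libraries and -0.08 (SE 0.08, adjusted p = 0.506, edgeR) in the other 7 of the 8.

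**Figure D3:**
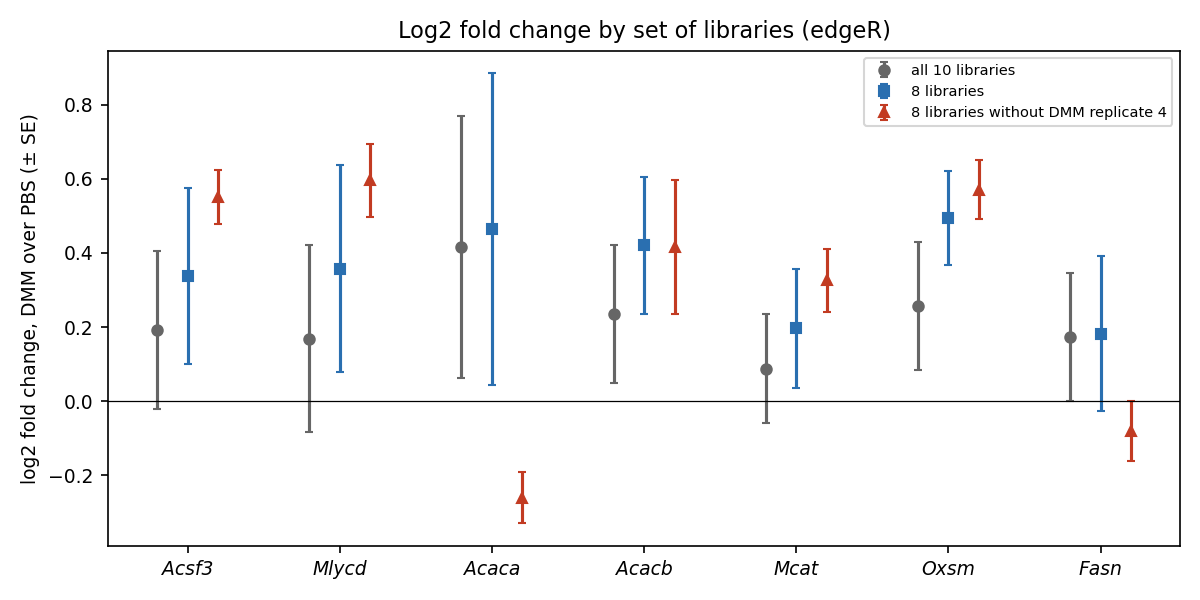
Log2 fold change of DMM over PBS from edgeR (points) with its standard error (bars) for each gene over all 10 libraries, the 8 libraries, and the 8 without DMM replicate 4. Acaca went from 0.46 to -0.26 and Acsf3 from 0.34 to 0.55 when that library was left out, while Acacb was at 0.42 both times.

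The members differ in the properties by which DMM replicate 4 stood apart. The longest annotated transcript has 9513 bases for Acaca and 10050 for Fasn, the members highest in that library, against 2604 for Acsf3, 2933 for Mlycd and 1917 for Mcat, the members lowest in it. Acacb, with 8788 bases, and Oxsm, with 3759, were inside the range of the other libraries. The GC content was 49.1% for Acaca and 45.0% for Oxsm, and between 56.7% and 59.3% for the other members. Relative to the other DMM libraries, DMM replicate 4 was 1.81 higher for Acaca and 0.81 higher for Fasn on the log2 scale, while Mlycd stood at -1.20, Acsf3 at -1.03 and Mcat at -0.51. The part of length and GC content in each single value was not tested beyond the correction given above.

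Between genes, levels were compared by the deposited FPKM, which divide counts by gene length. In PBS kidneys Fasn was highest, at 14.5 ± 1.22 FPKM (SD, n = 5). Mcat followed at 9.74 ± 1.02, Acsf3 at 9.01 ± 1.48 and Mlycd at 8.47 ± 1.75 FPKM, and these neighbours did not differ beyond their spread. Oxsm was at 4.85 ± 1.09, Acaca at 3.17 ± 0.27 and Acacb at 2.41 ± 0.54 FPKM. The order of the group means was the same in DMM kidneys, where Fasn was at 16.3 ± 4.77 and Acacb at 2.84 ± 0.57 FPKM (SD, n = 5). That order rests on DMM replicate 4. Without it, Acsf3 was at 11.5 ± 1.62 and Mcat at 11.1 ± 1.53, in reverse order, and Acaca at 2.83 ± 0.23 and Acacb at 2.79 ± 0.65 FPKM, nearly level (SD, n = 4). The order of genes also depends on the length used. The deposited gene length is 17074 bases for Acaca, against 9513 for its longest annotated transcript, and 3747 against 2604 for Acsf3, so the places of Acaca beside Oxsm and of Acsf3 beside Mcat are not settled by these values.

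Ratios within a library need no scaling between libraries. The log2 ratio of Acacb to Acaca counts, the outer membrane against the cytosolic carboxylase, was -1.25 ± 0.39 in PBS and -1.20 ± 0.82 in DMM libraries (SD, n = 5 each, exact two-sided permutation test, p = 0.905, smallest possible 0.00794). Of the DMM libraries, replicates 3 and 5 were highest, at -0.55 and -0.49, and replicate 4 was lowest, at -2.53. Over the 8 libraries the difference was 0.22 (exact permutation test, p = 0.714), and in the 7 without DMM replicate 4 it was 0.67 (exact permutation test, p = 0.0286, not adjusted over the ratios, and the smallest that 4 against 3 libraries allow). With only that library left out of all 10 it was 0.38 (exact permutation test, p = 0.190). The log2 ratio of Mlycd to Acacb, removal against synthesis at the mitochondrion, differed by -0.14 over all 10 libraries (exact permutation test, p = 0.849). DMM replicate 4 was at -1.10, the other DMM libraries between 0.12 and 0.53. Without DMM replicate 4 the sign turned, to 0.14 in the other 9 libraries and 0.19 in the other 7 of the 8. The log2 ratio of Acsf3 to Mlycd differed by 0.04 over all 10 libraries (exact permutation test, p = 0.603). Adjusted over the 3 ratios, the exact permutation p was 0.905 for each over all 10 libraries and 0.914 for each over the 8.

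Genes around malonyl-CoA were described by lists. Among all tested genes, 3.17% were higher and 4% lower over the 8 libraries, and 14.3% and 13.8% without DMM replicate 4. In all 10 libraries 0 genes of these lists passed in edgeR, and 0 to 3 per list had an unadjusted p under 0.05, against 10.9% of all tested genes. In the 8 libraries, the list of malonyl-CoA supply and carboxylase control had 1 of 13 tested genes higher and 0 lower, with a median log2 fold change of -0.00. There were 4 higher and 1 lower without DMM replicate 4. The gene higher over the 8 was Prkaa2, a catalytic subunit of the AMP-activated kinase that inhibits the carboxylases. It was at 68.8, 76.3, 110, 64.9 and 69.9 CPM in PBS replicates 1 to 5 and at 82.3, 131, 146, 219 and 144 CPM in DMM replicates 1 to 5. Over the 8 libraries its log2 fold change was 1.19 (SE 0.17, adjusted p = 0.00555, edgeR), and it was 0.89 (adjusted p = 0.378, edgeR) over all 10. Prkaa1, the gene of the other catalytic subunit, was at 0.16 (adjusted p = 0.757, edgeR) over the 8 libraries. Without DMM replicate 4, Prkaa1 was the lower gene of the list, at -0.19 (adjusted p = 0.0427, edgeR). In the carnitine shuttle, the step that malonyl-CoA inhibits, 2 of 4 tested genes were higher, and 3 without DMM replicate 4. Cpt1a, the inhibited palmitoyltransferase itself, had a log2 fold change of 0.54 (SE 0.12, adjusted p = 0.0317, edgeR), and Cpt2, its partner at the inner membrane, 0.83 (SE 0.21, adjusted p = 0.0491, edgeR). Over all 10 libraries these were 0.37 and 0.47 (adjusted p = 0.419 and 0.534, edgeR).

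Fatty acid elongation in the endoplasmic reticulum also consumes malonyl-CoA, and 1 of 11 tested genes of that list was higher. It was Elovl2, an elongase of polyunsaturated chains, at 1.01 (SE 0.20, adjusted p = 0.0189, edgeR) and, over all 10 libraries, at 0.67. Of 12 tested without DMM replicate 4, 6 were higher and 1 lower. None of 7 tested genes for mitochondrial fatty acid synthesis and lipoylation, which act with Mcat and Oxsm, passed over the 8 libraries, and 1 had an unadjusted p under 0.05 (edgeR). Aasdhppt, which attaches the prosthetic group of acyl carrier proteins, was at 0.26 and the reductase gene Cbr4 at 0.28 (adjusted p = 0.199 and 0.285, edgeR), and the list median was 0.25. Leaving out DMM replicate 4, 3 of the 7 were higher, among them Aasdhppt, at 0.26 (adjusted p = 0.0425, edgeR). Of the route from propionyl-CoA through methylmalonyl-CoA to succinyl-CoA, 1 of 9 tested genes was higher, the mutase gene Mut, at 0.92 (SE 0.16, adjusted p = 0.0114, edgeR). Mut was at 0.51 (adjusted p = 0.516, edgeR) over all 10 libraries, and 5 of the 9 were higher without DMM replicate 4.

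Lipogenic transcription factors and partners had 0 of 10 genes passing in edgeR, with 3 at an unadjusted p under 0.05, against 21.6% of all tested genes. Usf1 was at -0.59 and Nr1h3, which encodes a liver X receptor, at 0.38 (adjusted p = 0.123 and 0.0889, edgeR). Mlxipl was at 0.59 over the 8 libraries and 0.41 over all 10 (adjusted p = 0.169 and 0.524, edgeR). Without DMM replicate 4, 2 passed as higher, Mlxipl at 0.78 and Nr1h3 at 0.45 (adjusted p = 0.00179 and 0.00281, edgeR). In that fit 1 passed as lower, Usf1 at -0.41 (adjusted p = 0.00266, edgeR). Among enzymes that work beside Fasn in lipogenesis, 4 of 10 were higher. They were the desaturase Scd1, at 1.42 (SE 0.22, adjusted p = 0.00766, edgeR), the triglyceride enzyme Dgat2, at 1.01 (SE 0.18, adjusted p = 0.0139, edgeR), malic enzyme Me1, at 0.82, and the phosphatidate phosphatase Lpin1, at 0.63 (adjusted p = 0.0148 and 0.0482, edgeR). In all 10 libraries the values were smaller and did not pass, at 0.98 for Scd1, 0.59 for Dgat2, 0.42 for Me1 and 0.32 for Lpin1, and without DMM replicate 4 the list had 5 of 10 higher. Fasn itself did not pass in any of these fits. In the list of malonate transport and demalonylation, 2 of 5 genes were higher, both sodium-dependent dicarboxylate carriers of the plasma membrane. Slc13a3 had a log2 fold change of 2.11 (SE 0.43, adjusted p = 0.0225, edgeR) and Slc13a2 one of 1.11 (SE 0.26, adjusted p = 0.0372, edgeR). Slc13a3 was at 60.5, 71.0, 201, 18.6 and 52.2 CPM in PBS replicates 1 to 5 and at 46.6, 156, 272, 130 and 314 CPM in DMM replicates 1 to 5. Slc13a3 was at 1.19 (adjusted p = 0.50, edgeR) and Slc13a2 at 0.77 (adjusted p = 0.391, edgeR) over all 10 libraries, and without DMM replicate 4, 4 of the 5 genes were higher. No gene of the 8 pathway lists was lower over the 8 libraries, while 3 lists had 1 lower gene each without DMM replicate 4.

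Cell type markers also differed between libraries. Of 12 proximal tubule markers, 5 were higher and 0 lower over the 8 libraries, with a median log2 fold change of 1.43, against 3.17% and 4% of all tested genes. With all 10 libraries 0 passed in any marker list (edgeR), and the proximal tubule median was 0.72 with 2 markers at an unadjusted p under 0.05. Leaving out DMM replicate 4, 11 of 12 were higher. Their summed level was 4498, 4525, 11509, 1771 and 3506 CPM in PBS replicates 1 to 5, and 3445, 9329, 7771, 6565 and 11398 CPM in DMM replicates 1 to 5, with Kap the most abundant and none at 0. By this sum PBS replicate 3 was the highest PBS library and DMM replicate 1 the lowest DMM library. The 8 libraries lack both, so the marker counts over the 8 describe those libraries only. Of 10 markers of the loop, distal tubule and collecting duct, 5 were higher, and all 10 without DMM replicate 4. Their sum was 3264, 2730, 4548, 2069 and 1824 CPM in PBS and 2855, 4386, 5092, 2144 and 5440 CPM in DMM replicates 1 to 5, led by Umod. Both sums were high in PBS replicate 3, in which Acsf3, Mlycd, Acacb, Mcat and Oxsm were each at the highest value of their group. In DMM replicate 4 Acsf3, Mlycd and Mcat were the lowest of all 10. Its proximal tubule sum was above those of PBS replicates 1, 2, 4 and 5, and its loop and distal sum was the lowest of the DMM libraries. The sums are not corrected for transcript length or GC content, which the deviation of that library followed. The part of the tubule share in the members was not tested, and in bulk tissue more tubule cells and more RNA per cell cannot be told apart.

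Markers of other cells were lower or did not pass. Of 10 leukocyte markers 2 were lower and 0 higher, with sums from 1203 to 1587 CPM in PBS and from 549 to 1410 CPM in DMM kidneys, led by Lyz2, and 6 were lower without DMM replicate 4. Over all 10 libraries 0 leukocyte markers passed in edgeR, but all were negative, 6 of 10 had an unadjusted p under 0.05, and the median was -0.67. Of 8 fibroblast and myofibroblast markers 2 were lower, with sums from 6156 to 16235 CPM in PBS and from 4197 to 13100 CPM in DMM kidneys, led by Col3a1, and 5 were lower without DMM replicate 4. Over all 10 libraries 2 of the 8 fibroblast markers were positive and 0 had an unadjusted p under 0.05 (edgeR). Their median was -0.48 there, against -0.83 over the 8 libraries. None of 5 podocyte markers (most abundant Podxl), 6 endothelial markers (Plvap) and 7 injured tubule genes (Spp1) passed over the 8 libraries. Leaving out DMM replicate 4, Podxl (-0.25, adjusted p = 0.0357, edgeR) and 1 injured tubule gene passed as lower. The sign of Podxl turned with that library, since it was at 0.02 over the 8 libraries and 0.10 over all 10. All 14 interferon-stimulated genes were lower over the 8 libraries, with Irf7 the most abundant and a median log2 fold change of -3.36. Of the 14, 0 passed over all 10 libraries in edgeR, all 14 had an unadjusted p under 0.05, and the median was -1.82. Adipocyte markers, of interest because fat tissue is rich in Fasn and Acaca, summed to 247 CPM in PBS replicate 4 and 31.8 to 87.1 CPM elsewhere, with Fabp4 the most abundant. Of 4 adipocyte markers tested over the 8 libraries 0 passed in edgeR, and 0 had an unadjusted p under 0.05. Over all 10 libraries 3 were tested and 0 passed, but 1, at a log2 fold change of -2.22, had an unadjusted p under 0.05 (edgeR). Fasn and Acaca in PBS replicate 4 were inside the range of the other PBS libraries. Adrenal cortex markers summed to 5.33 to 12.2 CPM, led by Star, with Hsd3b1 at 0 counts in every library.

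Genes outside the lists with the most similar pattern across the 10 libraries were found by Pearson's r of log2 CPM, as a description only. Acsf3 was closest to Aldh2 (r = 0.99), Adh5 and Cyc1, and Mlycd to Pdhb (r = 0.99), Hpn and Fxyd2. Acaca was closest to Mga, Ep400 and Nup155 (r = 0.99 each), with r between 0.90 and 0.91 over the 9 libraries other than DMM replicate 4. Acacb was closest to Abca4 (r = 0.96) and Mal, Mcat to Plpp6 (r = 0.99), Gcsh and Hist1h1c, Oxsm to A4gnt (r = 0.98), Stard10 and Wdr13, and Fasn to Zfhx3 (r = 0.99), Prom1 and Nbea. For Fasn and Nbea, r was 0.98 over the 10 and 0.83 over these 9.

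Bases before the starts of Oxsm, the member that passed over the 8 libraries, of Mlycd, which was higher with it without DMM replicate 4, and of Fasn, which was not, are printed here for comparison. The RefSeq promoter table (GRCm38.p6) matched 6 of 7 members, all but Mcat. Each window holds 230 bases, printed in the direction of the gene, and capitals mark matches on either strand. The motifs searched were the E-box with the letters CACGTG and the CCAAT box. The others were the GC box with the letters GGGCGG and the nuclear receptor half-site with the letters AGGTCA. The windows are chr14:16249829-16250058 on the minus strand for Oxsm, within the span of the gene Ngly1, chr8:119394644-119394873 on the plus strand for Mlycd, and chr11:120824568-120824797 on the minus strand for Fasn.

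Oxsm: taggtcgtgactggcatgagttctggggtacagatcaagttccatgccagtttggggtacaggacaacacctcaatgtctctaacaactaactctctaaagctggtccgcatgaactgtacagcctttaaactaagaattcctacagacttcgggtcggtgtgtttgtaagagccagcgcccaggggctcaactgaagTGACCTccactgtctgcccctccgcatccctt
Mlycd: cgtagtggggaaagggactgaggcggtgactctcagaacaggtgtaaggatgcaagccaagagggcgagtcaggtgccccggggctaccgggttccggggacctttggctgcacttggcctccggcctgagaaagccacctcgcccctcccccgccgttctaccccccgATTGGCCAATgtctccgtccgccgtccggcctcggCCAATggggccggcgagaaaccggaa
Fasn: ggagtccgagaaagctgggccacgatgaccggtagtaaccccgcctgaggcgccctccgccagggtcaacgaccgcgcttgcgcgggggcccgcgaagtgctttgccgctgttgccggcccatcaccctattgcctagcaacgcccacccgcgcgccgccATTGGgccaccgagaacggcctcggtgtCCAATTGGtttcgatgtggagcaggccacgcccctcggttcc

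Mlycd and Fasn each held 3 matches to the CCAAT box, of which those of Fasn on opposite strands share bases where they meet, and Oxsm held 1 match to the nuclear receptor half-site. None of the other motifs was matched in these windows. Of 32851 promoter windows of the same length, 32.2% held the CCAAT box, 13% the half-site, 29.8% the GC box and 5.35% the E-box, so a match is a description only.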

How the data were processed

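The authors aligned NovaSeq X Plus reads to mm10 (HISAT2 2.0.5 in the submitters' processing notes) and deposited raw counts per gene. The counting tool, annotation and strand setting are not given in the sources used here. Deposited FPKM are counts over gene length and depth, as scaled by the authors. The authors' comparison columns hold DESeq2 group means (a signal, counts over size factors), the deposited log2 fold change, and its deposited p-value and adjusted p-value. The means served only to find which libraries carry weight, and the rest was not used. A further deposited column holds gene length in base pairs. Per-sample columns left unused number 0.

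Counts were filtered by filterByExpr, scaled by TMM and tested by edgeR 4.0.16 (quasi-likelihood F test, R 4.3.3) over all tested genes, 16505 over all 10 libraries, 16550 over the 8 and 16828 over the 8 without DMM replicate 4. A gene passed at an adjusted p under 0.05, at any fold change. SEs come from the F statistic. CPM use TMM factors of all 10 libraries, and log2 means add 0.1 CPM. Ratios add 0.5 to each count. The smallest exact permutation p is 0.00794 for 5 against 5 libraries and 0.0286 for 4 against 4. Replicates are separate mice, and reads are not independent molecules. Steps were tested on simulated data. The members and lists were chosen with earlier results of these data known. Named genes were all members, from each pathway list up to 5 passing genes by smallest p over the 8 libraries (else 2 by smallest p over all 10), for each member up to 3 protein-coding genes outside the lists with the highest r, and of marker lists the most abundant gene and any at 0 counts. Prkaa1 and Mlxipl were named beyond this rule. Hsd17b8 and Mmut were not matched by symbol, while Mut was. Alternatives were DESeq2 1.42.0, RLE or no scaling factors, other count filters, a fold change above 1.5, each library left out, the replicate number as a block, FPKM for ratios, and, added after seeing the data, a loess correction of each library by the GC share and size of the longest GENCODE transcript, known for 99.9% of tested genes.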

Additional observations from a re-analysis of the deposited data

Results flagged for a closer look

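A library was picked out where its distance to the nearest other library of its group was too large a part of the range of the 5 libraries by Dixon's ratio. Of 50 groups examined, 8 had such a library, and chance picks out about 1 in 20 independent groups. That rate does not hold here as it stands, since the genes share libraries, and Prkaa2, Dgat2, Slc13a3 and Slc13a2 were named because they passed in the 8 libraries, which lack PBS replicate 3. All 8 involved DMM replicate 4 or PBS replicate 3. For Acaca, DMM replicate 4 was at 169.5 CPM and the other DMM libraries between 44.3 and 53.6 CPM. For Fasn, it was at 274.3 CPM against 146 to 169 CPM. The log2 ratio of Mlycd to Acacb was -1.10 in this library and between 0.12 and 0.53 in the others. PBS replicate 3 was at 28.22 CPM for Oxsm, with the other PBS libraries between 17.4 and 19.5 CPM, and at 71.35 CPM for Dgat2, against 33.0 to 35.8 CPM. It was at 110.1 CPM for Prkaa2, against 64.9 to 76.3 CPM, at 200.6 CPM for Slc13a3, against 18.6 to 71.0 CPM, and at 16.3 CPM for Slc13a2, against 7.87 to 9.65 CPM.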

How the results depend on the processing

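Over all 10 libraries, 0 members passed under each alternative other than the 8 libraries, where 1 passed (Oxsm, 0.49). Apart from the 8 libraries, 0 of all tested genes passed in these alternatives too, with 2 exceptions. DESeq2 called 12 genes higher and 33 lower of 16430. Without DMM replicate 1, 59 were higher and 458 lower of 16760. Leaving out single libraries turned the sign of Acaca (range -0.17 to 0.56) and Fasn (-0.0294 to 0.24), both without DMM replicate 4. The other members stayed positive, at 0.1172 to 0.3493 for Acsf3, 0.0563 to 0.3453 for Mlycd, 0.1558 to 0.3431 for Acacb, 0.0153 to 0.1789 for Mcat and 0.1994 to 0.4079 for Oxsm.

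Over the 8 libraries, 1 member passed. The count was 0 with library size alone (Oxsm 0.39), with no filter on low counts (0.48), with at least 10 counts in every library (0.49) and with a fold change above 1.5 also required, and 3 when libraries were corrected for GC content and length (Acsf3 0.52, Mlycd 0.55, Mcat 0.47, while Oxsm, at 0.49, did not pass). Without single libraries it ran from 0 to 5, with log2 fold changes of 0.24 to 0.55 for Acsf3, 0.23 to 0.60 for Mlycd, -0.26 to 0.65 for Acaca, 0.12 to 0.33 for Mcat, 0.45 to 0.57 for Oxsm and -0.0802 to 0.27 for Fasn. Among all genes, these fits had from 131 higher and 276 lower (without PBS replicate 5, 16918 tested) to 2407 and 2320 (without DMM replicate 4, 16828 tested). The highest count of members, and the negative values, came without DMM replicate 4. The cause was not tested.

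Log2 ratios without single libraries ran from -0.13 to 0.38 (Acacb to Acaca) and -0.27 to 0.14 (Mlycd to Acacb) over all 10, and from -0.0086 to 0.67, -0.36 to 0.19 and, for Acsf3 to Mlycd, -0.0433 to 0.0643 over the 8. Of all alternatives, 274 values kept direction and side of the threshold, 11 moved up, 22 moved down and 14 turned sign. The 22 are 11 for Oxsm over the 8 libraries and 11 for the count of members there, which largely restates the lost Oxsm call, and counts of members are also among the 11.

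Scaling by library size alone moved the median log2 fold change of all genes to -0.09 over the 8 libraries, from 0.02, and the split of passing genes from 525 higher and 662 lower to 323 and 776. With the GC and length correction it was 1332 and 874, with DESeq2 978 and 1082. It was 422 and 565 with no filter on low counts, and 528 and 663 with at least 10 counts in every library.

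The shared replicate number did not pair the libraries, with r of deviations from the group means between -0.22 and 0.34. With the number as a block, 0 members and 0 of 16505 tested genes passed over all 10 libraries. The log2 fold changes were 0.15 (Acsf3), 0.11 (Mlycd), 0.18 (Acaca), 0.24 (Acacb), 0.07 (Mcat), 0.26 (Oxsm) and 0.13 (Fasn). Differences in log2 ratio were 0.05 (Acacb to Acaca), 0.04 (Acsf3 to Mlycd) and -0.14 (Mlycd to Acacb).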
